A study of Mus musculus with 6 samples.

Results

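Menin, the cyclin-dependent kinase (CDK) inhibitors p27, p16, p15, p18 and p19, and the retinoblastoma proteins are brakes on the cell cycle, and the 9 genes that encode them are described here in a mouse pancreatic beta cell line. The genes are Men1, Cdkn1b, Cdkn2a, Cdkn2b, Cdkn2c, Cdkn2d, Rb1, Rbl1 and Rbl2. Their members on the array are the probe sets to which the array annotation gives exactly 1 symbol, that of the gene, which came to 111 of 212097 such probe sets and 9 of 20416 genes. By gene, Men1 had 11 probe sets, Cdkn1b 7, Cdkn2a 6, Cdkn2b 2, Cdkn2c 4, Cdkn2d 4, Rb1 28, Rbl1 24 and Rbl2 25.

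RNA was measured on 6 arrays in MIN6-4N cells, with 3 cultures of a clone carrying the empty plasmid pcDNA3.1 (vector) and 3 of a clone carrying pcDNA3.1-mMeg3 (Meg3). Meg3 is an imprinted gene for a long non-coding RNA, and the design sets beta cells that carry a Meg3 plasmid against cells that carry none of it. Plasmids were introduced by nucleofection, and both clones were selected for 5 weeks in G418 at 750 µg/ml and then grown in low glucose medium with 15% serum and G418 at 500 µg/ml. Each group is 1 clone, so the spread behind every p-value is that among cultures grown from 1 clone, and what Meg3 does cannot be told apart from any other difference between the clones. The labels give the Meg3 clone more than 1 name, and the descriptions speak of sorted cells although no protocol describes a sort. The parent MIN6 line came from an insulinoma of a mouse that expressed the SV40 large T antigen under an insulin promoter, and T antigen binds and inactivates the retinoblastoma proteins. The arrays analysed here give no measure of T antigen.

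Menin is a scaffold protein that recruits the histone methyltransferases KMT2A and KMT2B to genes, among them Cdkn1b and Cdkn2c in endocrine cells, and its inherited loss causes tumours of the parathyroid, pituitary and pancreatic islets. The INK4 proteins (p16, p15, p18 and p19) bind CDK4 and CDK6 and keep them from pairing with D-type cyclins, while p27 binds CDK2 complexes with cyclin E or A. Unphosphorylated retinoblastoma proteins hold E2F transcription factors at the genes of S phase, and phosphorylation by the CDKs releases them.

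Values are log2 probe set intensities, and the value of a gene is the mean of its probe sets on an array. All 9 genes lay, in either clone, above 6.66, the median over all genes, and above 5.84, the 95th percentile of 1048 olfactory and vomeronasal receptor genes, which served as a mark for dim signal. Probes differ in affinity, so these levels rank no gene against another. A gene value also averages probe sets of unlike level. Their means over the 6 arrays ran from 5.09 to 11.83 for Rb1 and from 5.71 to 10.72 for Rbl2. For Cdkn2d they ran from 7.58 to 11.43, and for Cdkn2a from 6.39 to 10.50. The dimmest probe sets of Rb1 and Rbl2 thus lay below 5.84. Vector replicate 2 and Meg3 replicate 1 stood apart, with an SD of 0.85 and 0.63 over probe sets after subtraction of the median of the other 5 arrays, where the remaining 4 arrays had 0.42 to 0.48. Of the beta cell markers, 10 of 11 exceeded the same mark, among them Ins2 (vector 12.54 ± 0.09, Meg3 12.60 ± 0.05, SD, n = 3 each). The glucagon gene Gcg, a marker of alpha cells, was also bright (12.82 and 12.66), as was Krt7 of the duct list (10.13 and 10.03), in which Krt19 (5.12 and 5.29) and Cftr (4.23 and 4.29) lay below the mark. Above the mark lay 2 of 2 alpha, 3 of 5 duct, 3 of 7 fibroblast or stellate and 2 of 6 acinar markers. So did 2 of 3 delta and PP, 1 of 6 leukocyte and 1 of 5 endothelial cell markers. No marker of any cell type was called different between the clones, where 0.666% of all genes were. The largest marker differences in each direction, picked with their values known, were both of beta cell genes. Pcsk1 differed by -0.54 (SE 0.12, limma adjusted p = 0.160), with all Meg3 values below all vector values. Ucn3, which lay below the mark, differed by 0.35 (SE 0.15, limma adjusted p = 0.707). Summed on the linear scale, the beta cell markers ranged from 14.99 to 15.29 (log2 of the sum) in the vector arrays and from 14.86 to 15.17 in the Meg3 arrays. The transcript Meg3 itself read 5.63, 6.00 and 5.88 in the vector cultures and 7.24, 7.91 and 7.53 in the Meg3 cultures, with no overlap, and was higher in the Meg3 clone by 1.72 on the log2 scale (SE 0.19; limma adjusted p = 0.00756). Its 5 probe sets differed by -0.22 to 3.34 (median 2.02), 4 of them positive and 1 negative, and limma called 0 of them singly. The vector mean of 5.84 lay at the mark for dim signal, with vector replicate 1 below it. For both reasons the size of the Meg3 difference is uncertain.

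None of the 9 genes was called different between the clones. By limma with Benjamini-Hochberg adjustment over all genes, 0 of 9 had an adjusted p under 0.05, against 136 of 20416 genes (0.666%), and 0 of 9 had an unadjusted p under 0.05, against 6.96% of genes. The 16 alternative limma settings also called 0 of 9. Of the differences (Meg3 minus vector), 7 were negative and 2 positive, with a median of -0.15, whereas 48.4% of all genes had a negative difference and their median was 0.0060. With all 6 arrays weighted alike, each 95% confidence interval from limma included 0 and lay within a 2-fold change in either direction, from the widest, for Men1 (-0.96 to 0.60), to the narrowest, for Cdkn2b (-0.44 to 0.13). In 4 alternatives the interval for Men1 reached past 2-fold, to as low as -1.27 without Meg3 replicate 3. With array weights the intervals for Rb1 and Rbl1 excluded 0, but that setting called 2682 of all genes and its estimation stopped before converging. The groups did not overlap for 1 of the 9 genes, Cdkn2a, against 12.8% of all genes in either direction and 6.39% with Meg3 lower. With 3 arrays in each clone, the smallest two-sided p of the exact permutation test is 0.1.

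**Figure D1:**
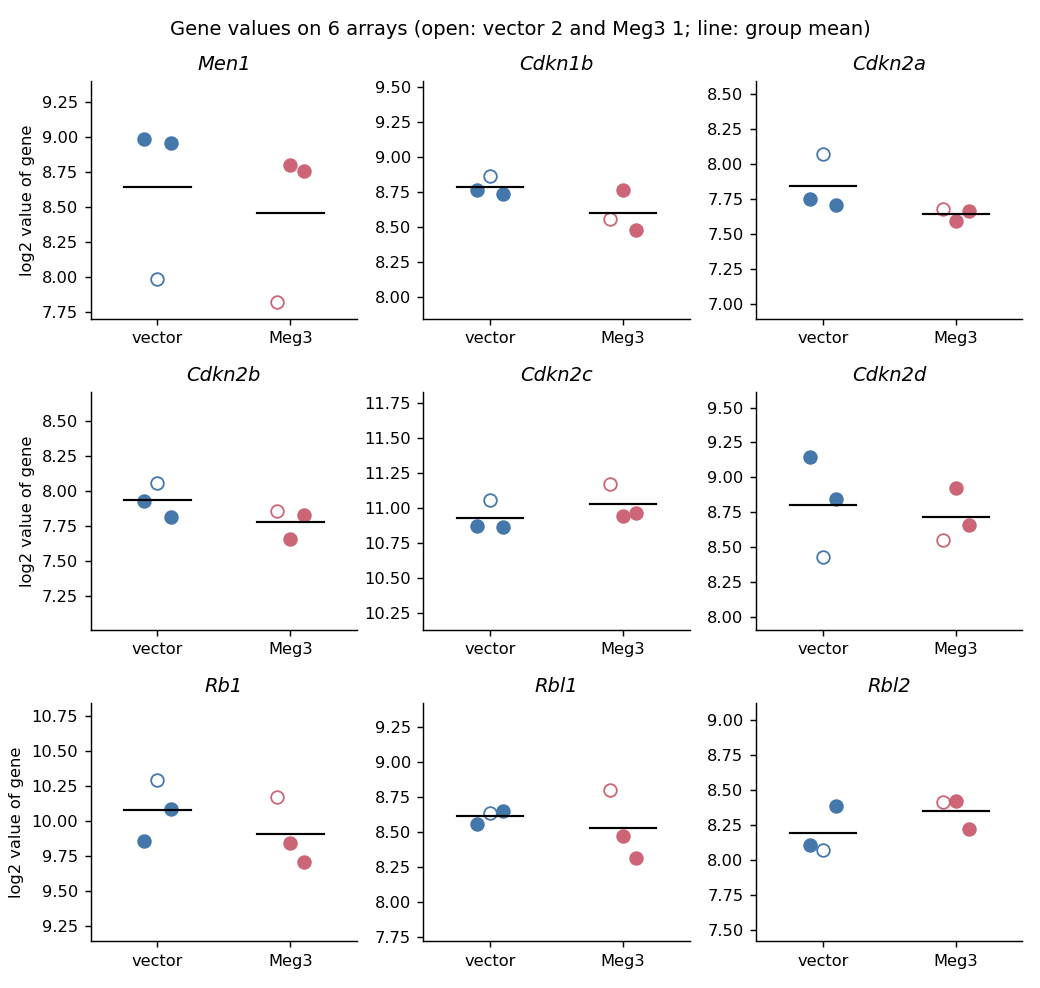
Each panel plots the log2 value of 1 gene (vertical axis, the same span of log2 units in every panel) in the vector and Meg3 clones, with a point per array, a line at the group mean, and open points for vector replicate 2 and Meg3 replicate 1. The open points lie about 1 log2 unit below the filled ones for Men1 in both clones, and only for Cdkn2a do all 3 Meg3 values lie below all 3 vector values.

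**Figure D2:**
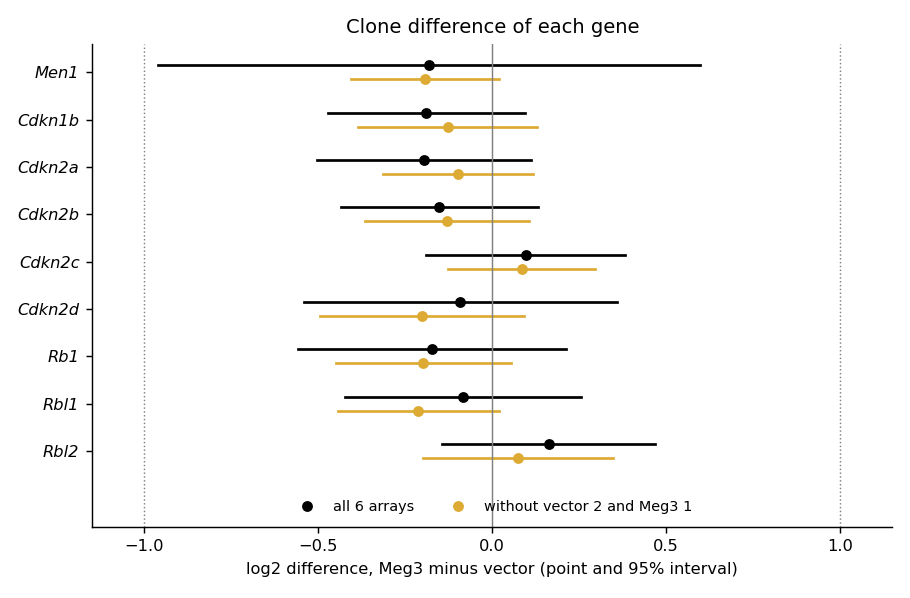
Points give the log2 difference of each gene, Meg3 minus vector, with its 95% confidence interval from limma, on all 6 arrays (black) and without vector replicate 2 and Meg3 replicate 1 (yellow); dotted lines mark a 2-fold change. All intervals include 0, and that of Men1 shrinks from -0.96 to 0.60 with all arrays to -0.41 to 0.02 without the 2.

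Men1 read 8.99, 7.99 and 8.96 in the vector cultures and 7.82, 8.81 and 8.76 in the Meg3 cultures. The low values were vector replicate 2 and Meg3 replicate 1, the arrays that stood apart, and the groups overlapped. The vector mean of 8.64 ± 0.57 and the Meg3 mean of 8.46 ± 0.55 (SD, n = 3 each) gave a log2 difference of -0.18 (SE 0.34; limma adjusted p = 1.00). Both arrays read lower than the others of their group, by -0.99 and -0.96, and 1.48% of all genes had a mean deviation on these arrays as low as that of Men1 or lower. The residual SD of Men1, 0.56, stood at the 97.9th percentile of all genes. Of its 11 probe sets, 10 were lower on both of these arrays than the mean of the other cultures of the same clone. The exception, probe set 10460880, read 8.43 on vector replicate 2 against 7.02 and 7.40 in the other vector cultures.

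Without these 2 arrays, a setting chosen after seeing the data, the Men1 difference was -0.19 (SE 0.095; limma adjusted p = 0.309), and with all 6 arrays and a term for the 2 it was -0.18 (SE 0.089; adjusted p = 0.360). Those settings called 5.44% and 3.92% of all genes. With single arrays left out, the Men1 difference ran from -0.51 without vector replicate 2 to 0.14 without Meg3 replicate 1. What sets these arrays apart was not tested.

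**Figure D3:**
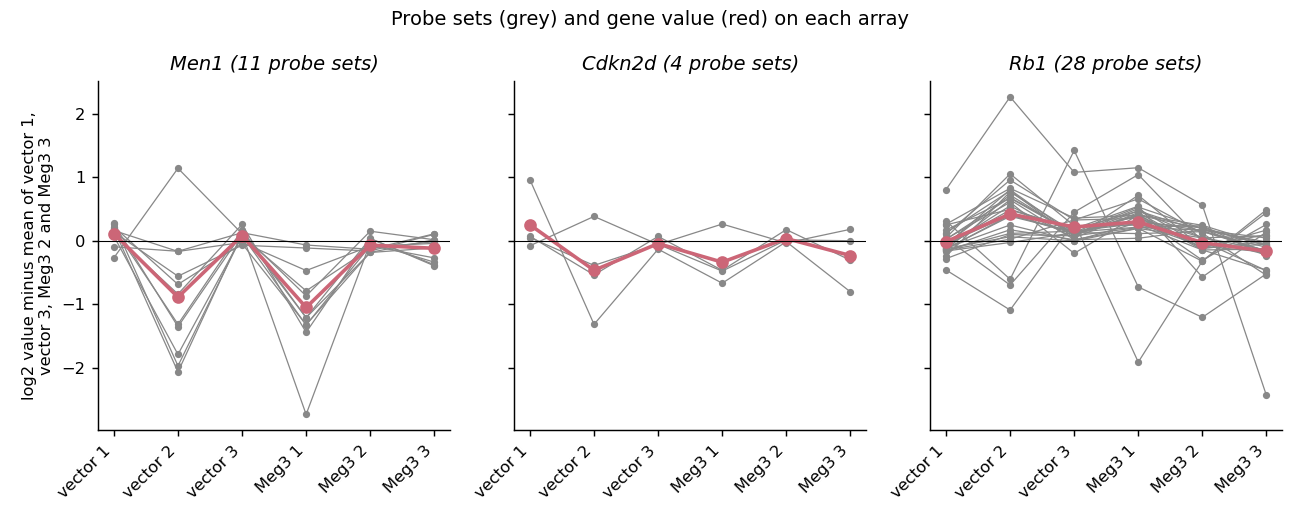
Grey points joined by a line give 1 probe set on each array as its log2 value minus its mean over vector replicates 1 and 3 and Meg3 replicates 2 and 3, and red gives the gene, for Men1, Cdkn2d and Rb1; the arrays have no order, and lines only join values of a probe set. On vector replicate 2 and Meg3 replicate 1, 10 of 11 Men1 probe sets and 3 of 4 Cdkn2d probe sets were lower than the mean of the other cultures of their clone, and 22 of 28 Rb1 probe sets were higher than it.

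The genes that most resembled Men1 over the 6 arrays were Mtor, a kinase of growth control (Pearson r = 0.999), Smg5, a factor of nonsense-mediated RNA decay (0.998), and Tbx15, a T-box transcription factor (0.998). These likenesses describe 6 points and carry no test. Like Men1, each was lowest on Meg3 replicate 1 and next lowest on vector replicate 2: Mtor read 7.34 and 7.39 there and 7.79 to 7.94 elsewhere.

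Cdkn1b encodes p27, the inhibitor of cyclin E and CDK2 complexes, and is among the genes menin is known to maintain. Its values were 8.77, 8.87 and 8.74 in the vector cultures and 8.56, 8.76 and 8.48 in the Meg3 cultures. Meg3 replicate 2 lay among the vector values, and the other Meg3 cultures lay below them. The means were 8.79 ± 0.070 and 8.60 ± 0.15 (SD, n = 3 each), a log2 difference of -0.19 (SE 0.12, 95% interval -0.47 to 0.094; limma adjusted p = 0.987). All 7 Cdkn1b probe sets had negative differences, from -0.30 to -0.022, and the groups overlapped for each. The brightest of them, 10542314, had the difference nearest 0.

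Cdkn2c encodes p18, the INK4 protein that menin is known to maintain together with p27. It read 10.87, 11.06 and 10.86 in the vector cultures and 11.17, 10.94 and 10.96 in the Meg3 cultures. The arrays that stood apart gave the highest value of each clone, and the groups overlapped. The difference was 0.096 (SE 0.12, 95% interval -0.19 to 0.38; limma adjusted p = 1.00), from means of 10.93 ± 0.11 and 11.03 ± 0.13 (SD, n = 3 each). It was 0.023 without Meg3 replicate 1, 0.063 without vector replicate 3 and 0.158 without vector replicate 2. Of its 4 probe sets, 3 were higher, by at most 0.33, and the brightest differed by -0.029.

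Cdkn2d encodes the INK4 protein p19, which is distinct from p19ARF. Vector cultures gave 9.14, 8.43 and 8.85 and Meg3 cultures 8.56, 8.93 and 8.66. Here too the arrays that stood apart were the lowest of each clone, by -0.57 and -0.24 against the others of their group. The means, 8.81 ± 0.36 and 8.71 ± 0.19 (SD, n = 3 each), differed by -0.092 (SE 0.20, 95% interval -0.54 to 0.36; limma adjusted p = 1.00). Without both arrays the difference was -0.20 (SE 0.13; adjusted p = 0.448), and without vector replicate 1 alone it was 0.076 (SE 0.19; adjusted p = 0.996). Without vector replicate 2 alone it was -0.28 (SE 0.15; adjusted p = 0.459). The widest spread was that of probe set 10591521, which ran from 6.88 to 9.16 within the vector clone.

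Cdkn2a carries 2 start sites, from which p19ARF, an inhibitor of MDM2, and p16, the INK4 protein, are made with shared downstream exons in different reading frames. A gene value that averages its probe sets does not tell these products apart. The RefSeq table of promoters (GRCm38.p6) holds windows for 8 of the 9 genes and none for Rb1, 12 windows in all, each of 250 bases before and 50 after a start site. They were searched on both strands for the E2F motif in 4 forms, TTTCCCGC, TTTCGCGC, TTTGCCGC and TTTGGCGC, which 2.26% of all 32851 windows hold. Of the 12 windows 2 held a form: TTTCGCGC began 18 bases before the start of Rbl1, and TTTCCCGC began 99 bases before the upstream start of Cdkn2a, that of p19ARF. Shown are the 250 bases before each start with a match and before the downstream start of Cdkn2a, that of p16. Capitals mark the motif, all lie on the minus strand, and a match describes letters and not a binding site.
Cdkn2a, upstream start, chr4:89294620-89294869: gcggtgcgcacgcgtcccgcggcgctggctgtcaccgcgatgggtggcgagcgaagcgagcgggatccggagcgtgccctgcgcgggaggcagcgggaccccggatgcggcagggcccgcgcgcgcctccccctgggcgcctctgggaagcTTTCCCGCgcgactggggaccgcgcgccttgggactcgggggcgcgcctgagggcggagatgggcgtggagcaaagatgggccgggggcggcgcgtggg
Cdkn2a, downstream start, chr4:89282193-89282442: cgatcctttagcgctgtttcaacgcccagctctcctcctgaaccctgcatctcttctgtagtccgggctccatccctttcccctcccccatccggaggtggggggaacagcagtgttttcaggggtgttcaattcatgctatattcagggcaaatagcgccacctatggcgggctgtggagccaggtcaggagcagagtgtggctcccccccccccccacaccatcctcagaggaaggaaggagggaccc
Rbl1, chr2:157204535-157204784: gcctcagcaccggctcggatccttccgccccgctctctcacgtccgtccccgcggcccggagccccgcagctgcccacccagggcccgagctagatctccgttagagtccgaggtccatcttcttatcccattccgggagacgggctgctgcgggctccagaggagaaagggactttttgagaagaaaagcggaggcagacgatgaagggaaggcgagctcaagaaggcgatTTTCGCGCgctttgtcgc

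Cdkn2a read 7.75, 8.07 and 7.71 in the vector cultures and 7.68, 7.59 and 7.67 in the Meg3 cultures. All Meg3 values lay below all vector values, but the nearest of them, vector replicate 3 and Meg3 replicate 1, were 7.71 and 7.68. The highest value was that of vector replicate 2, an array that stood apart. The difference was -0.20 (SE 0.13, 95% interval -0.50 to 0.11; limma adjusted p = 1.00; exact permutation p = 0.1), from means of 7.84 ± 0.20 and 7.65 ± 0.047 (SD, n = 3 each). Without both arrays it was -0.098 (SE 0.096; adjusted p = 0.630), and without vector replicate 2 alone it was -0.082 (SE 0.10; adjusted p = 0.743).

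Among the 6 Cdkn2a probe sets, 5 had negative differences, and they ranged from -0.63 to 0.13. Probe set 10514345 differed most (7.68, 7.87 and 7.40 in the vector cultures against 6.93, 7.46 and 6.66 in the Meg3 cultures), with groups that overlapped through Meg3 replicate 2. The brightest, 10514341, differed by -0.014. The annotation used here does not place these probe sets on exons, so none is assigned to p16 or p19ARF.

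Cdkn2b encodes p15, the INK4 protein induced by TGF-beta in many epithelial cells. It read 7.93, 8.06 and 7.82 in the vector cultures and 7.86, 7.66 and 7.83 in the Meg3 cultures, so the groups overlapped. The difference was -0.15 (SE 0.12; limma adjusted p = 1.00), from means of 7.93 ± 0.12 and 7.78 ± 0.11 (SD, n = 3 each). It was -0.091 without vector replicate 2, -0.090 without Meg3 replicate 2 and -0.21 without vector replicate 3. It rests on 2 probe sets, of which 10514348 differed by -0.0063 and 10514349 by -0.30, the latter without overlap. Cdkn2a and Cdkn2b resemble each other in sequence, and a probe for either may also take up RNA of the other, which makes both values uncertain.

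Rb1 encodes pRB, which holds the activating E2F factors. Values of 9.86, 10.29 and 10.09 in the vector cultures and 10.17, 9.84 and 9.71 in the Meg3 cultures overlapped. Both arrays that stood apart read higher than the others of their group, by 0.32 and 0.40, which is the opposite of Men1. The means were 10.08 ± 0.22 and 9.90 ± 0.24 (SD, n = 3 each), a difference of -0.17 (SE 0.17, 95% interval -0.56 to 0.21; limma adjusted p = 1.00). It was -0.067 without vector replicate 2, -0.075 without Meg3 replicate 3, -0.29 without vector replicate 1 and -0.31 without Meg3 replicate 1. With array weights it was -0.26, with an interval that excluded 0 (-0.47 to -0.055) and a limma adjusted p of 0.0916. That setting called 2682 of all genes, and the estimation of its weights stopped before converging. Probe set 10421546 read 5.21 in Meg3 replicate 3 and 8.20 to 9.91 on every other array, so its difference of -1.62 rests on 1 array. The median of the 28 Rb1 probe set differences was -0.069, and the brightest probe set gave 0.062.

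Rbl1 encodes p107, which pairs with the repressive E2F factors in cycling cells. It read 8.55, 8.63 and 8.65 in the vector cultures and 8.80, 8.47 and 8.31 in the Meg3 cultures. The Meg3 values lay on both sides of the vector values, with an SD of 0.25 against 0.052 (n = 3 each), and the difference was -0.085 (SE 0.15; limma adjusted p = 1.00). Without Meg3 replicate 3 it was 0.023 (SE 0.16), and without Meg3 replicate 1 it was -0.22. Leaving out vector replicate 2 as well gave -0.21 (SE 0.10; adjusted p = 0.301). With the same array weights as for Rb1 it was -0.22, with an interval that excluded 0 (-0.41 to -0.028) and a limma adjusted p of 0.123. The genes whose values most resembled those of Rbl1 over the 6 arrays were Cr1l (Pearson r = 0.994), Tmem117 (0.987) and Gemin6 (0.986), again as a description of 6 points.

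Rbl2 encodes p130, the retinoblastoma protein of resting cells and part of the DREAM repressor complex. It read 8.11, 8.08 and 8.39 in the vector cultures and 8.41, 8.42 and 8.23 in the Meg3 cultures. Vector replicate 3 lay among the Meg3 values. The difference, 0.16 (SE 0.13, 95% interval -0.14 to 0.47; limma adjusted p = 1.00), came from means of 8.19 ± 0.17 and 8.35 ± 0.11 (SD, n = 3 each). It was -0.040 (SE 0.094) with array weights, and positive in the 15 other alternatives, among them 0.26 without vector replicate 3 and 0.10 without vector replicate 2.

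Tested singly, 0 of the 111 probe sets were called by limma over all 212097 (8 called, 0.00377%), and 3 had an unadjusted p under 0.05, against 5.65% of all probe sets. Negative differences were found in 72 of the 111 (median -0.066), against 49.2% of all probe sets. The groups did not overlap for 7 of the 111, against 11.6% of all probe sets, and 6 of these 7 belonged to Rbl2. Probe set 10573871 of Rbl2 read 6.31, 6.69 and 6.32 in the vector cultures and 8.20, 7.71 and 6.98 in the Meg3 cultures, a difference of 1.19 (SE 0.34; limma adjusted p = 0.657). In the other direction, Rbl2 probe set 10573879 read 7.32, 7.90 and 8.21 against 6.99, 6.72 and 6.84, a difference of -0.96 (SE 0.27; adjusted p = 0.655). A further Rbl2 probe set, 10573870, differed by 1.33, but vector replicate 2 read 3.67 there and all other arrays read 6.31 to 7.16. Its groups barely separated, with vector replicate 1 at 6.783 and Meg3 replicate 2 at 6.785. With the dimmest 30% of features left out, 109 of the 111 probe sets and all 9 genes remained in the test. Over its 25 probe sets, Rbl2 had 15 positive and 10 negative differences.

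Whether probe sets of a gene differed in their clone difference was tested with limma's diffSplice, since probe sets can cover different transcripts. It called 70 of 18124 genes (0.386%) and 0 of the 9, with an adjusted p of 1.00 for each. Taken singly, 0 of the 111 probe sets departed from the rest of their gene, against 0.0801% of all probe sets. The furthest departure was that of Rb1 probe set 10421546 (-1.50; diffSplice adjusted p = 0.161), the one with a low value on a single array.

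**Figure D4:**
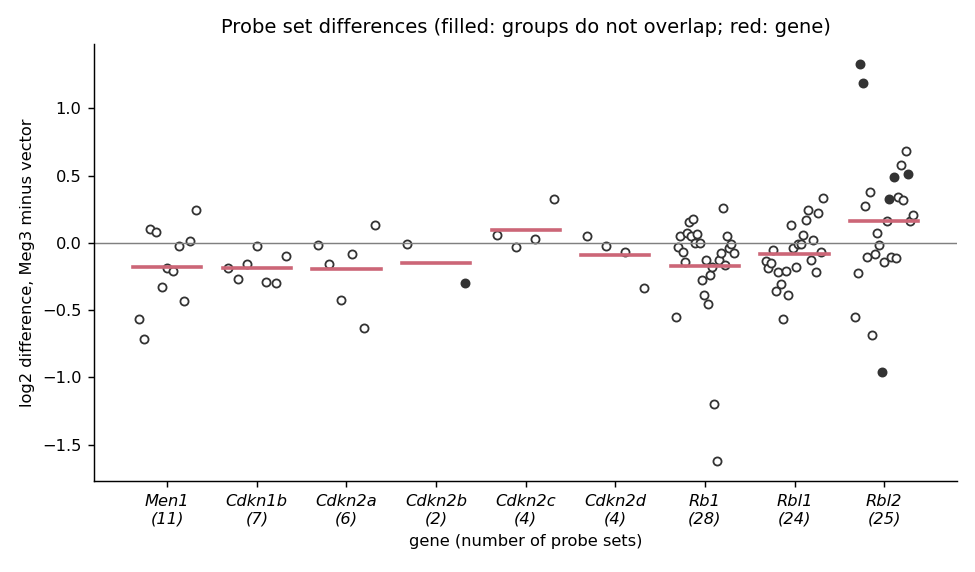
Each point is 1 probe set, with its log2 difference (Meg3 minus vector) on the vertical axis, grouped by gene with the number of probe sets below; filled points are probe sets whose groups did not overlap, and red bars give the gene. Differences of Cdkn1b probe sets were all negative, from -0.30 to -0.022, and those of Rbl2 ran from -0.96 to 1.33, with 6 of 25 filled.

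The partners of these genes were followed in 7 lists that held 105 measured genes, and 0 of the 105 were called by limma over all genes (0.666% of all genes were), while 5 had an unadjusted p under 0.05, against 6.96% of all genes. The 7 list medians ran from -0.089 to 0.016, beside 0.0060 for all genes, and 9 genes had groups that did not overlap, against 12.8% of all genes. None of these counts sets the lists apart from other genes. Without both arrays that stood apart 5 genes were called, 3 lower and 2 higher, a share to be read beside the 5.44% of all genes called in that setting.

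Among 15 cyclins and CDKs of G1 and S phase, 10 differences were negative (median -0.089). Cdk2, the kinase that p27 inhibits, read 8.08, 8.01 and 7.88 in the vector cultures and 7.61, 7.59 and 7.42 in the Meg3 cultures. All Meg3 values were below all vector values, yet the difference of -0.45 (SE 0.12) had a limma adjusted p = 0.241, and it was called without both arrays (-0.48, SE 0.11; adjusted p = 0.0388). Cdc25a, a phosphatase that activates CDK2, differed by -0.26 (SE 0.13; adjusted p = 0.801). The INK4 target Cdk4 and its partner Ccnd2, picked with their values known, differed by -0.11 (SE 0.26) and 0.18 (SE 0.24).

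Of 17 genes of E2F, DP and the DREAM complex, 11 had negative differences (median -0.023). The E2F partners Tfdp2 and Tfdp1 differed by -0.33 (SE 0.18) and -0.26 (SE 0.18), with limma adjusted p of 0.893 and 0.998. E2F target genes, which the retinoblastoma proteins repress, had 8 positive and 9 negative differences among 17 (median -0.012). Cdc6, a loader of the replicative helicase, differed by -0.27 (SE 0.16; adjusted p = 0.939) and was called without both arrays (-0.41, SE 0.097; adjusted p = 0.0385). Mcm3, a subunit of that helicase, differed by 0.23 (SE 0.30), and by -0.019 without both arrays.

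Among 10 cofactors of the retinoblastoma proteins (4 positive and 6 negative differences, median -0.024), Smarca2, an ATPase of the SWI/SNF remodelling complex, had the largest difference of all listed genes. It read 9.81, 9.29 and 9.96 in the vector cultures and 10.40, 10.63 and 10.66 in the Meg3 cultures, with no overlap. The difference was 0.88 (SE 0.19; limma adjusted p = 0.120), and 0.76 (SE 0.10; adjusted p = 0.00223) without both arrays. The other SWI/SNF ATPase gene, Smarca4, differed by 0.16 (SE 0.27; adjusted p = 1.00).

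Menin's partners had 9 positive and 9 negative differences among 18 (median 0.016). Jund, whose product menin binds, differed by -0.38 (SE 0.17; limma adjusted p = 0.709), with all Meg3 values (7.14 to 7.38) below all vector values (the lowest was 7.47). The methyltransferase gene Kmt2a differed by 0.30 (SE 0.17; adjusted p = 0.925). Of 17 regulators of the Cdkn2a and Cdkn2b locus, 10 had negative differences (median -0.024). Ets2, an activator of Cdkn2a, differed by -0.45 (SE 0.23; adjusted p = 0.859), and by -0.72 (SE 0.11; adjusted p = 0.00593) without both arrays. Id1, an inhibitor of ETS and bHLH factors, differed by -0.41 (SE 0.19; adjusted p = 0.758). Tbx3, a repressor of the locus picked with its value known, differed by 0.41 (SE 0.13; adjusted p = 0.365), and was called without both arrays (0.49, SE 0.12; adjusted p = 0.0392).

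Other CDK inhibitors and genes of p27 turnover had 7 negative differences among 11 (median -0.062). Rnf123, a subunit of a ubiquitin ligase for p27, differed by -0.33 (SE 0.32; limma adjusted p = 1.00). The phosphatase gene Cdkn3 read 9.07, 8.87 and 8.78 in the vector cultures and 8.71, 8.63 and 8.51 in the Meg3 cultures, a difference of -0.30 (SE 0.13; adjusted p = 0.709).

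**Figure D5:**
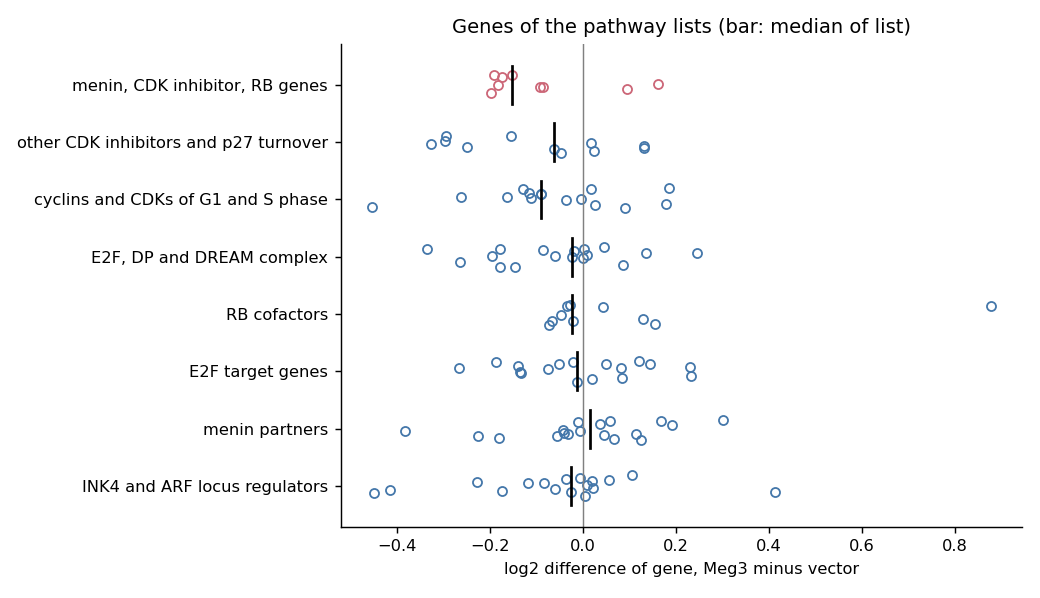
Each open circle is 1 gene, placed by its log2 difference (Meg3 minus vector), in a row for each list, with a bar at the list's median and the 9 genes of menin, CDK inhibitors and retinoblastoma proteins in red. The medians of the 7 partner lists lie from -0.089 to 0.016, that of the 9 genes at -0.15, and Smarca2 stands alone at 0.88.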

How the data were processed

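The authors deposited 1 log2 value per probe set for each of 6 Affymetrix arrays. RMA and Partek are the tools listed in the submitters' processing notes. The sources used here do not give their versions or a build. Per the labels' protocols, 6 µg of total RNA per culture was labelled with biotin. Scanner files were not used here, so another background correction was not tried. Of 241419 probe sets, 212097 had 1 symbol and were used, 4475 had several and 24847 none. A gene value is the mean of its probe sets (20416 genes). The clones were compared by limma (version 3.58.1, R 4.3.3) with eBayes and no covariates; p-values are two-sided, adjusted by Benjamini-Hochberg over all features and called under 0.05. diffSplice was run on the same probe sets. Errors of differences are moderated standard errors. The number of arrays limits the precision. The gene fit and diffSplice were tested on simulated data with noise drawn independently for every feature and array. Such noise lacks the deviation across genes that vector replicate 2 and Meg3 replicate 1 shared, so the simulation does not cover it.

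The genes and lists were chosen with earlier results of these data known. Named were the 9 genes, Meg3, from each list the called genes or otherwise the 2 largest absolute differences among genes above the median level, and for Men1 and Rbl1 the 3 genes of highest Pearson r. Old symbols of listed genes were matched through the RefSeq gene table of GRCm38.p6. Alternatives were a replicate block, centring, quantile normalization again, leaving out the dimmest 30%, eBayes with trend and robust estimation, array weights, the median or brightest probe set, and each array left out. Added after seeing the data were the fits without, or with a term for, vector replicate 2 and Meg3 replicate 1. The labels do not say whether replicate numbers pair the cultures. Deviations of same-numbered arrays correlated at -0.61, -0.63 and 0.28 across genes. Those of vector replicate 2 and Meg3 replicate 1, which stood apart, correlated at 0.65. Because these arrays bear different numbers, the correlations cannot tell whether same-numbered cultures share a source.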

Additional observations from a re-analysis of the deposited data

How the results depend on the processing

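In all 16 alternatives, planned or added, 0 of the 9 genes were called, and in the alternatives that tested these, 0 of their probe sets were called and 0 of the 9 passed the F test for departing probe sets. With array weights the intervals of Rb1 and Rbl1 excluded 0. Signs changed in few settings. With the brightest probe set Cdkn2c differed by -0.029, Cdkn2d by 0.054 and Rb1 by 0.062; with the median of probe sets Men1 differed by 0.030; with array weights Rbl2 differed by -0.040. With 1 array left out, differences ranged from -0.51 to 0.14 for Men1 (0.14 without Meg3 replicate 1), from -0.28 to 0.076 for Cdkn2d (0.076 without vector replicate 1) and from -0.22 to 0.023 for Rbl1 (0.023 without Meg3 replicate 3). Taking the median of probe sets moved the level over 6 arrays to 9.38 for Cdkn1b, 7.35 for Cdkn2a, 11.26 for Cdkn2c, 8.04 for Cdkn2d and 10.32 for Rb1.

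The replicate block, whose numbers the labels tie to no stated source, left 30 genes and 0 probe sets called. It left 36 genes with departing probe sets and changed no call of the 9 genes. Over all genes, array weights, whose estimation stopped before converging, called 2682, the median of probe sets 58 and the brightest probe set 40. Without both arrays that stood apart 1111 were called, and 800 with a term for them. Leaving out single arrays gave 22 to 349 genes. Of the list genes, array weights called 12, the fit without both arrays 5 and the term 2, and single arrays left out 0 to 2. Called probe sets numbered 26 after centring, 25 after quantile normalization, 32 without the dimmest, 16 with trend and robust estimation, 589 with array weights and 0 without both arrays or any single array. Genes with departing probe sets numbered 45 without the dimmest, 336 without both arrays and 32 to 131 with 1 array left out. The causes were not tested.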
